A study of Mus musculus with 7 samples.

Results

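The genes described here are 29 members of the cholesterol and fatty acid synthesis pathways, of 17784 genes with a row in the deposited matrices. They were chosen by name, not by their values: 7 enzymes that make the isoprenoid units of cholesterol (Acat2, Hmgcs1, Mvk, Pmvk, Mvd, Idi1 and Fdps), 11 that join and trim these into the sterol (Fdft1, Sqle, Lss, Cyp51, Tm7sf2, Msmo1, Nsdhl, Hsd17b7, Ebp, Sc5d and Dhcr7), 4 genes of regulation and transport (Insig1, Srebf1, Srebf2 and Stard4) and 7 fatty acid genes (Acly, Acaca, Fasn, Scd1, Scd2, Elovl6 and Elovl5). The matrices had a row for 29 of 29 in pOPC, PC, PC-2F and PC-3F. In the 3 libraries of fibroblast origin 28 had one, and the row for Idi1 was absent.

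Single cells of C57BL/6 mice were profiled in 7 libraries, 1 per population, to follow the conversion of 2 donor cell types into induced oligodendrocyte progenitor cells (iOPCs). Primary oligodendrocyte progenitors from brain (pOPC) were the target population, mouse embryonic fibroblasts (MEF) and cerebral pericytes (PC) the donors. MEF-2F and PC-2F had been transduced with viruses carrying Olig2 and Sox10, and MEF-3F and PC-3F with Olig2, Sox10 and Nkx6.2. Untransduced MEF and PC grew in their own media, whereas pOPC and all 4 transduced populations grew in medium for progenitors, so the factors and the change of medium cannot be told apart in any comparison with a donor. Cells were detached with trypsin-EDTA and captured on the ddSEQ system, and transcript 3′ ends were counted by unique molecular identifiers (UMIs).

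Cholesterol is built from acetyl-CoA through mevalonate, squalene and a chain of sterol intermediates, and the same precursor feeds the making of fatty acids. When membranes run low in cholesterol, SREBP proteins (encoded by Srebf1 and Srebf2) leave the endoplasmic reticulum, are cut, and switch on most genes of both pathways, while INSIG proteins hold them back when sterol is plentiful. Oligodendrocyte lineage cells make much of their own cholesterol and fatty acid, since myelin is mostly lipid and the brain takes up little cholesterol from blood.

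After a minimum of 500 UMIs, 1124 of 1140 barcodes were kept: 134 cells in pOPC, 131 in MEF, 82 in MEF-2F, 161 in MEF-3F, and 290 in PC, 179 in PC-2F and 147 in PC-3F. Library totals ran from 230324 UMIs in MEF-2F to 1292607 in PC, and no barcode was shared between libraries. The deposited values are not counts and were decoded to counts, an inference that every level here depends on (97.0% to 100% of the members' UMIs per library came from codes with a probability above 0.99). Levels are UMIs scaled to a common library total (CPM, counts per 1000000 UMIs) with 95% exact Poisson intervals, which cover counting error only. With 1 library per population no difference could be tested, and no spread between cultures is known. The 9 progenitor markers summed to 7829.7 CPM in pOPC, 165 in MEF, 144 in PC and 1229 to 2924 in the transduced libraries. In PC the pericyte markers Rgs5, Kcnj8 and Abcc9 were at 0 UMIs, whereas Pdgfrb stood at 343 CPM, Cspg4 at 55.7, and Mcam, Notch3 and Anpep had 4 to 10 UMIs.

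The start regions of the members are shown first, because SREBPs act on such sequences together with NF-Y, which binds the CCAAT box. RefSeq (GRCm38.p6) gave a window from 250 bases before to 50 after the start for 23 of the 29 members. CCAAT on either strand lay in a window of 20 of the 23 (87.0%), against 41.1% of all 27025 genes and 43.4% of the 7411 genes measured in at least 1 library. The GC box GGGCGG lay in 18 of 23 (78.3%, against 72.3% of measured genes) and the E-box CACGTG in 5 of 23 (21.7%, against 11.8%). The classical sterol regulatory element TCACNCCAC was in the window of 1 member, Hmgcs1 (4.35% of members against 1.38% of measured genes), with its first base at position -137. These are matches of letters in a short window, not measured binding. The GENCODE M21 annotation starts Msmo1 at 64733792 and Insig1 at 28071363, inside the stretches shown. Part of these 2 stretches thus lies within the gene by that annotation. The 250 bases upstream of the RefSeq start follow for a mevalonate enzyme, a sterol enzyme, a regulator and a fatty acid enzyme. They run 5′ to 3′ on the gene's strand, with CCAAT or its complement ATTGG and the sterol element in capitals.

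Hmgcs1 (chr13:119690101-119690350, + strand): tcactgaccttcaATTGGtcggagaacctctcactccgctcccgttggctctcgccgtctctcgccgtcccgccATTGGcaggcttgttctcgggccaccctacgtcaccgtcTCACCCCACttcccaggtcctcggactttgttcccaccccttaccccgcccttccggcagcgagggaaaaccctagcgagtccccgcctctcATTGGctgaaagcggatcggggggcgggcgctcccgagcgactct

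Msmo1 (chr8:64733579-64733828, - strand): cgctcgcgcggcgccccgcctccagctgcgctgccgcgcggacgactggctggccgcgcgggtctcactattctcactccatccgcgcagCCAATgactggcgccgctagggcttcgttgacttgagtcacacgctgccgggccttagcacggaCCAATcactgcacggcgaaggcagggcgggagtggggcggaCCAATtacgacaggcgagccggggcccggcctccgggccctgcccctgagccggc

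Insig1 (chr5:28071162-28071411, + strand): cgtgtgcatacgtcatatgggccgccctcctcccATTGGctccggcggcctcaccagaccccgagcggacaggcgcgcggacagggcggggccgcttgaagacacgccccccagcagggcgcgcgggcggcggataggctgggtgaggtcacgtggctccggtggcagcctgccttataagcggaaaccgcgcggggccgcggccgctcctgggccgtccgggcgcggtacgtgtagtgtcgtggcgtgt

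Fasn (chr11:120824548-120824797, - strand): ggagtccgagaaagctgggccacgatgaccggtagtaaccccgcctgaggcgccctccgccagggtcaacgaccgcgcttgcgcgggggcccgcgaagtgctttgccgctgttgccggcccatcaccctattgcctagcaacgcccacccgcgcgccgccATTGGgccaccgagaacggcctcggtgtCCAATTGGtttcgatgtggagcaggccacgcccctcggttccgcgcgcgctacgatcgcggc

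The Hmgcs1 sequence holds 3 CCAAT matches, Msmo1 holds 3, Insig1 holds 1, and Fasn holds 3, of which a pair overlap on opposite strands.

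The mevalonate and sterol enzymes and the fatty acid genes followed different orders across the libraries. The 18 enzymes summed to 4772 CPM (4605 to 4945) in pOPC, 1069 (998 to 1143) in MEF, 712 (607 to 829.7) in MEF-2F, 622 (552 to 699) in MEF-3F, and 2332 (2249 to 2416) in PC, 2524 (2435 to 2616) in PC-2F and 1915 (1808 to 2025) in PC-3F. The 7 fatty acid genes summed to 5222 CPM (5046 to 5402) in pOPC, 1070.0 (999 to 1145) in MEF, 3847 (3598 to 4109) in MEF-2F, 3149 (2989 to 3316) in MEF-3F, and 2691 (2603 to 2782) in PC, 3938 (3827 to 4052) in PC-2F and 3498 (3354 to 3647) in PC-3F. Thus both sums were highest in pOPC, but the libraries of fibroblast origin were the lowest 3 for the enzymes. For the fatty acid genes only untransduced MEF lay far below the rest, a contrast that rested on Scd1 and Scd2. With this pair left out, the libraries of fibroblast origin were again the lowest 3, at 413 (MEF), 533 (MEF-3F) and 643 CPM (MEF-2F). The other sums were then 1017 (PC), 1044 (PC-3F), 1186 (PC-2F) and 2066 (pOPC). The converted fibroblasts carried 5.40 (4.57 to 6.42) fatty acid UMIs per enzyme UMI in MEF-2F and 5.06 (4.46 to 5.77) in MEF-3F. The ratio was 1.09 (1.04 to 1.15) in pOPC, 1.0 (0.909 to 1.10) in MEF, 1.15 (1.10 to 1.21) in PC, 1.56 (1.49 to 1.63) in PC-2F and 1.83 (1.70 to 1.96) in PC-3F.

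**Figure D1:**
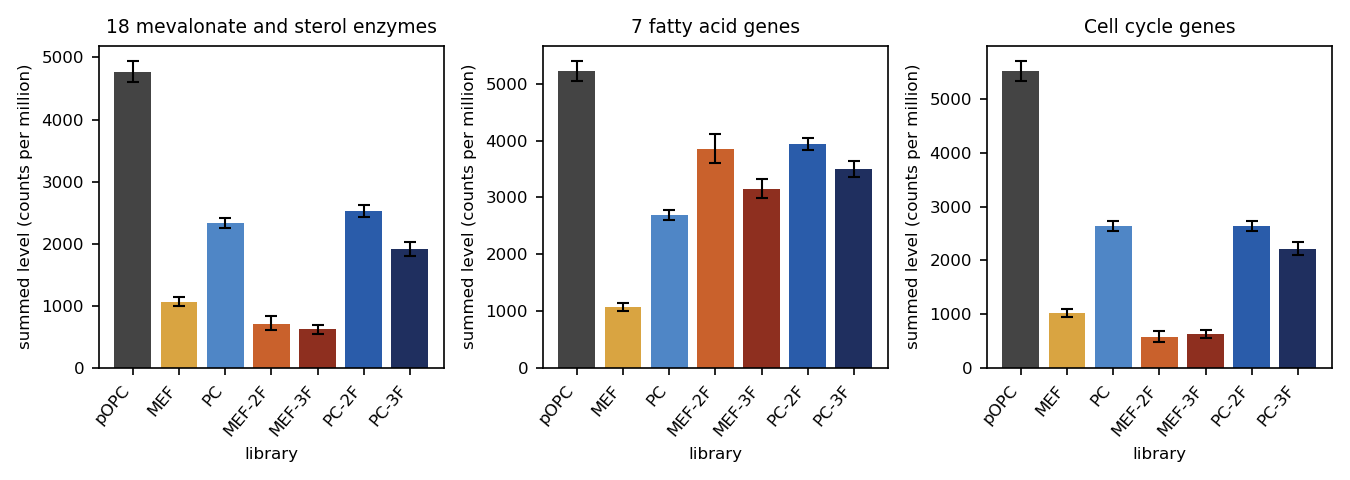
Summed level in CPM (y axis) of 3 gene lists in each of the 7 libraries (x axis), with bars for the sum and whiskers for its 95% Poisson interval. The enzyme sum is lowest in MEF-3F at 622 CPM and MEF-2F at 712, whereas the fatty acid sum is lowest in MEF at 1070.0, and the cell cycle sum runs from 573 in MEF-2F to 5525 in pOPC.

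Across the libraries, markers of dividing cells moved with the enzyme sum. The 15 cell cycle genes summed to 5525 CPM in pOPC, 1022 in MEF, 573 in MEF-2F, 622 in MEF-3F, and 2641 in PC, 2646 in PC-2F and 2214 in PC-3F, and 15 of 15 had UMIs in every library. In cells without a cell cycle UMI after thinning to 1000 UMIs, the enzyme sum was 874 CPM (794 to 959.9) in 81 cells of MEF, 704 in 65 of MEF-2F and 593 in 87 of MEF-3F. It was 2235 CPM in 58 cells of PC, 1825 in 66 of PC-3F and 2059.7 in 61 of PC-2F. The 3 libraries of pericyte origin stood above the 3 of fibroblast origin in these cells too. Before thinning these cells still held cell cycle UMIs, at 721 CPM in PC, 445 in PC-2F, 373 in PC-3F, 208 in MEF, 123 in MEF-3F and 104 in MEF-2F, so the class is not matched for cycling between libraries. Only 3 cells of pOPC fell in that class, at 1631 CPM (982 to 2547), so pOPC could not be compared there. Among cells with 3 or more cell cycle UMIs the sum was 4818 CPM (4636 to 5004) in 97 cells of pOPC, against 2747 in 69 of PC-2F, 2414 in 107 of PC and 1837 in 41 of PC-3F. It was 1429 in 24 cells of MEF, 1065 in 5 of MEF-2F and 1037 in 7 of MEF-3F. Among thinned cells of a library, enzyme and cell cycle UMIs were weakly related. Their Spearman correlation was 0.29 in MEF, 0.17 in PC and PC-2F, and -0.15 to 0.06 in the other libraries, at low counts per cell.

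**Figure D2:**
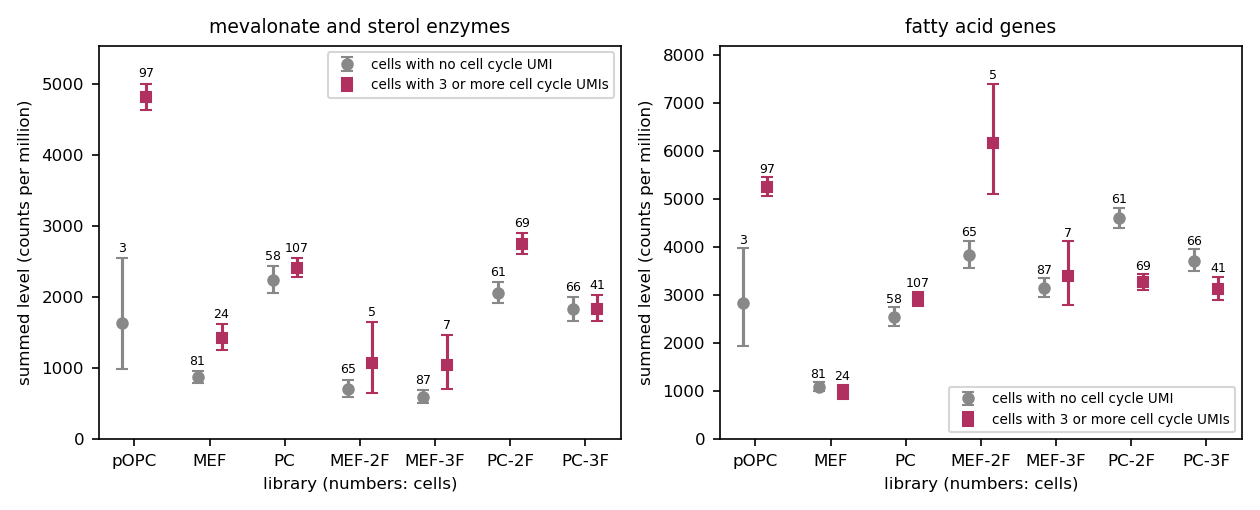
Summed level in CPM (y axis) of the 18 enzymes (left) and the 7 fatty acid genes (right) in cells with 0 or with at least 3 cell cycle UMIs after thinning to 1000, for each library (x axis). Points carry 95% Poisson intervals and the number of cells, and the enzyme sum in cells with no cell cycle UMI is 593 to 874 CPM in the libraries of fibroblast origin and 1825 to 2235 in those of pericyte origin.

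Of the mevalonate enzymes, Hmgcs1, which makes HMG-CoA and is among the strongest SREBP targets, stood at 1420.2 CPM in pOPC, 217 in MEF, 178 in MEF-2F, 93.8 in MEF-3F, and 296 in PC, 399 in PC-2F and 291 in PC-3F. It was the leading member of this step in all 7 libraries, with 36.4% of the step's UMIs in PC and 63.2% in pOPC. Acat2, the cytosolic thiolase that precedes it, was at 485 CPM in pOPC, 65.8 in MEF, 39.1 in MEF-2F, 43.6 in MEF-3F, and 188 in PC, 235 in PC-2F and 164 in PC-3F. Both were thus highest in pOPC, intermediate in the 3 libraries of pericyte origin and lowest in the 3 of fibroblast origin.

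The kinases and the decarboxylase of the step did not follow this order as closely. Mvk, mevalonate kinase, was highest in PC at 144 CPM, with 114 in pOPC, then 62.5 in PC-2F, 59.8 in PC-3F, 46.8 in MEF, and down to 39.1 in MEF-2F and 28.4 in MEF-3F. Pmvk, the next kinase, was highest in PC-2F at 108 CPM, with 81.9 in PC-3F, 73.3 in pOPC, 49.5 in PC, 34.7 in MEF-2F, 32.7 in MEF-3F and 11.4 in MEF. Mvd, which decarboxylates the product, ran from 82.7 CPM in pOPC to 8.68 in MEF-2F, where it rested on 2 UMIs. Fdps, farnesyl diphosphate synthase, was highest in PC at 86.6 CPM and lowest in MEF-2F at 8.68. Idi1, the isomerase between these steps, had 3 to 12 UMIs in each library with a row and was measured in no comparison.

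Most enzymes of the sterol step were highest in pOPC, 9 of 11, with Hsd17b7 and Ebp as the exceptions. Sqle, squalene epoxidase, a rate-controlling enzyme, was at 454 CPM in pOPC, 141 in MEF, 47.8 in MEF-2F, 82.9 in MEF-3F, and 227 in PC, 283 in PC-2F and 219 in PC-3F. Msmo1, the C4 methyl oxidase whose start region is shown above, was at 645 CPM in pOPC, 141 in MEF, 95.5 in MEF-2F, 39.3 in MEF-3F, and 306 in PC, 294 in PC-2F and 189 in PC-3F. Cyp51, lanosterol demethylase, was at 401 CPM in pOPC, 137 in MEF, 39.1 in MEF-2F, 37.1 in MEF-3F, and 334 in PC, 246 in PC-2F and 217 in PC-3F. All 3 enzymes were lower in both converted fibroblast libraries than in any other library.

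Dhcr7, which catalyses the last reduction to cholesterol, was at 186 CPM in pOPC, 7.6 in MEF, 13.0 in MEF-2F, 15.3 in MEF-3F, and 26.3 in PC, 102 in PC-2F and 92.9 in PC-3F. It was the member with the widest gap between MEF and pOPC, and the converted pericytes lay between PC and pOPC. Ebp, the sterol isomerase, differed in the place of pOPC, with 39.0 CPM in pOPC, 46.8 in MEF, 52.1 in MEF-2F, 41.5 in MEF-3F, and 115 in PC, 117 in PC-2F and 148 in PC-3F. It was the only member whose lowest library was pOPC. The interval there, 25.2 to 57.6 CPM, overlapped those of MEF, MEF-2F and MEF-3F. Lss, the cyclase that makes lanosterol, ran from 194 CPM in pOPC to 17.5 in MEF-3F. Nsdhl, which removes the C4 carboxyl, ran from 194 in pOPC to 27.9 in MEF, and Sc5d, the desaturase near the end of the chain, from 139 in pOPC to 13.1 in MEF-3F. Fdft1, squalene synthase, ran from 136 to 28.4 CPM between the same libraries. Tm7sf2, a sterol reductase, lay between 21.5 in MEF and 68.7 in pOPC, and Hsd17b7, a sterol ketoreductase, between 4.34 in MEF-2F (1 UMI) and 86.7 in PC-2F.

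**Figure D3:**
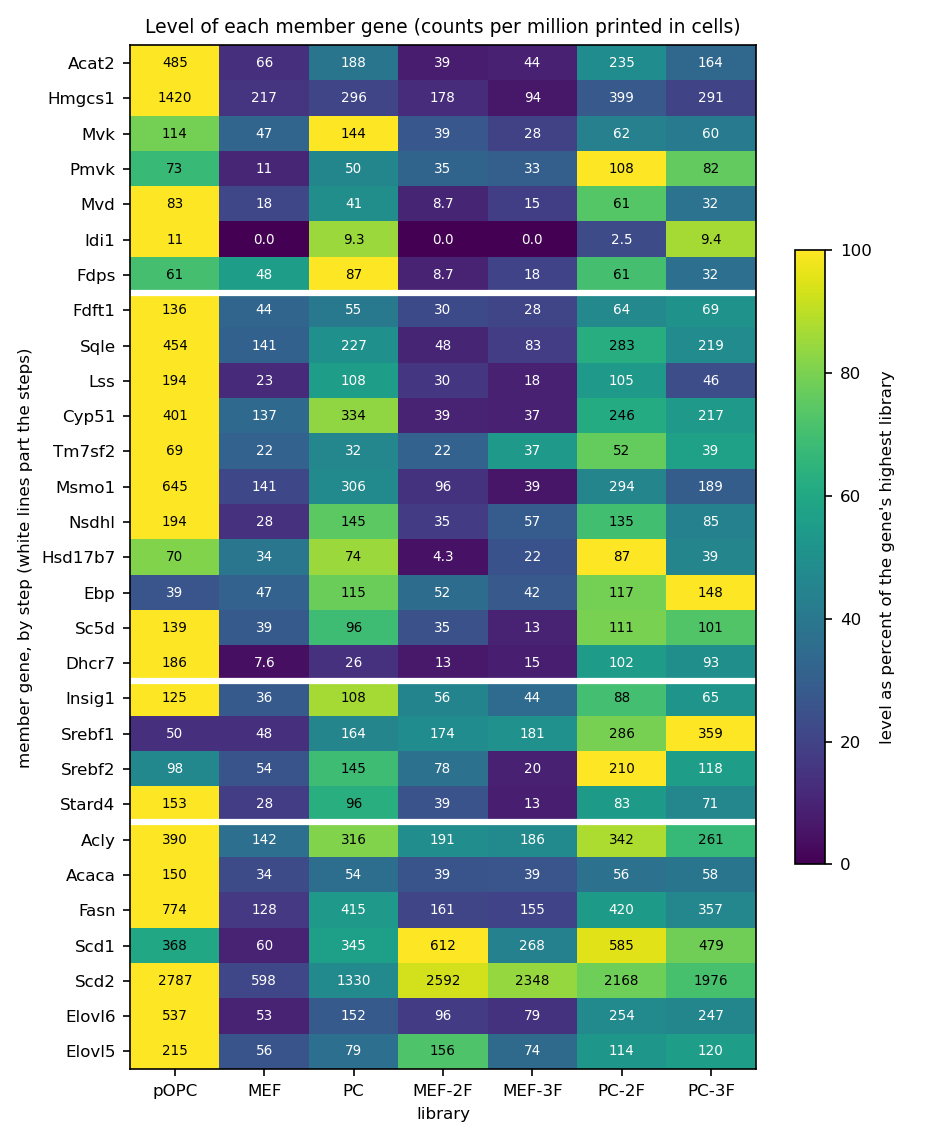
Level of each of the 29 members (rows, by step) in each library (columns), as CPM printed in the cells and as percent of the gene's highest library in colour. Of the 29 genes 21 are highest in pOPC, and the lowest library is MEF for 13, MEF-2F for 5 and MEF-3F for 10, the last counting Idi1, which is tied at 0 in all 3.

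Among the regulators, Srebf1, whose product acts mainly on fatty acid genes, stood apart from the enzymes. Its level was 49.9 CPM (32 UMIs) in pOPC, 48.1 (38) in MEF, 174 (40) in MEF-2F, 181 (83) in MEF-3F, and 164 (212) in PC, 286 (343) in PC-2F and 359 (228) in PC-3F. It was thus higher in all 4 transduced libraries than in pOPC and in their own donors. Srebf2, whose product acts mainly on cholesterol genes, was at 98.3 CPM in pOPC, 54.4 in MEF, 78.2 in MEF-2F, 19.6 in MEF-3F, and 145 in PC, 210.1 in PC-2F and 118 in PC-3F. Insig1, which retains the SREBP complex and is itself an SREBP target, ran from 125 CPM in pOPC to 35.5 in MEF. Stard4, a cholesterol carrier, ran from 153 CPM in pOPC to 13.1 in MEF-3F. Levels of messenger RNA do not show how much SREBP is cut and active.

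The fatty acid genes were lowest in MEF, 7 of 7, and highest in pOPC, 6 of 7. Scd2, the stearoyl-CoA desaturase that is the main form in brain (chr19:44293674-44306864, GENCODE M21), was at 2787 CPM in pOPC, 598 in MEF, 2592 in MEF-2F, 2348 in MEF-3F, and 1329.9 in PC, 2168 in PC-2F and 1976 in PC-3F. Scd1, its paralog, was at 368 CPM in pOPC, 59.5 in MEF, 612 in MEF-2F, 268 in MEF-3F, and 345 in PC, 585 in PC-2F and 479 in PC-3F. The pair share 145 of 4888 stretches of 50 bases in their annotated transcripts (2.97% of those of Scd1), and 0 lie in the last 500 bases of the longest Scd1 transcript, where 3′ counting takes most reads. Scd2 made up 67.4% of the fatty acid sum in MEF-2F and 74.6% in MEF-3F, against 49.4% to 56.5% in the other libraries.

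Acly, Acaca, Fasn and Elovl6 were not called in either converted fibroblast library against MEF. Fasn, fatty acid synthase, was at 774 CPM in pOPC, 128 in MEF, 161 in MEF-2F, 155 in MEF-3F, and 415 in PC, 420.3 in PC-2F and 357 in PC-3F. Acly, which supplies cytosolic acetyl-CoA, was at 390.2 CPM in pOPC, 142 in MEF, 191 in MEF-2F, 186 in MEF-3F, and 316 in PC, 342 in PC-2F and 261 in PC-3F. Acaca, acetyl-CoA carboxylase, was at 149.8 CPM in pOPC and at 34.2 to 58.3 in the other libraries. Elovl6, which elongates palmitate, was at 537 CPM in pOPC, 53.2 in MEF, 95.5 in MEF-2F, 78.6 in MEF-3F, and 152 in PC, 254 in PC-2F and 247 in PC-3F. Elovl5, an elongase of polyunsaturated chains, was at 215 CPM in pOPC, 55.7 in MEF, 156 in MEF-2F, 74.2 in MEF-3F, and 78.9 in PC, 114 in PC-2F and 119.7 in PC-3F, so MEF-2F was its second highest library. Without Scd1 and Scd2, the fatty acid UMIs per enzyme UMI were 0.902 (0.718 to 1.13) in MEF-2F and 0.856 (0.719 to 1.02) in MEF-3F, still above the 0.386 to 0.545 of the other libraries.

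The first comparison asked how converted fibroblasts differed from their donor. A member was measured with at least 10 UMIs and 20 CPM in 1 of both libraries, and called at 2-fold or more with an exact conditional interval of the ratio that excluded 1. In MEF-2F against MEF, 4 of 25 measured members were higher, against 19.0% of all 7542 genes measured, and 4 were lower, against 14.7%. Those 4 higher were Scd1, Scd2, Elovl5 and Srebf1, and the 4 lower were Fdps, Sqle, Cyp51 and Hsd17b7. Scd1 had the largest ratio, 10.3-fold higher (7.35 to 14.6), and Scd2 was 4.34-fold higher (3.84 to 4.90). Srebf1 was 3.61-fold higher (2.26 to 5.78) and Elovl5 2.81-fold (1.75 to 4.46). Hsd17b7 had the smallest ratio, 7.87-fold lower (1.30 to 322) on 1 UMI in MEF-2F. Cyp51 was 3.50-fold lower (1.78 to 7.86) and Sqle 2.94-fold lower (1.58 to 6.07). By step, 0 of 14 measured enzymes were called higher and 0 of 7 fatty acid genes lower.

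In MEF-3F against MEF, which shares its donor library with the comparison before, 5 of 26 measured members were higher (all genes: 23.6%) and 6 were lower (12.7%). Higher were Scd1 at 4.51-fold (3.2 to 6.45), Scd2 at 3.93-fold (3.52 to 4.39), Srebf1 at 3.76-fold (2.54 to 5.68), Pmvk at 2.87-fold (1.18 to 7.44) and Nsdhl at 2.04-fold (1.11 to 3.77). Lower were Cyp51, the smallest ratio, at 3.69-fold (2.2 to 6.56), Msmo1 at 3.58-fold (2.16 to 6.26), Sc5d, Srebf2, Fdps and Hmgcs1, the last at 2.31-fold (1.64 to 3.30). Summed, the enzymes of MEF-2F were lower by a factor of 1.5 (1.27 to 1.79) and those of MEF-3F by 1.72 (1.5 to 1.97). The summed fatty acid genes were 3.60-fold (3.27 to 3.96) and 2.94-fold (2.70 to 3.21) higher. Without Scd1 and Scd2 that sum was only 1.56-fold (1.27 to 1.90) and 1.29-fold (1.09 to 1.53) higher.

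The lower enzyme sum of MEF-2F was not shared by all of its barcodes. Its matrix joins 2 runs of sorted barcodes, which the labels do not explain. The run of 65 cells had 552 CPM (449 to 672) and the run of 17 cells 1299 CPM (1000.3 to 1659). The interval of the second contains the 1069 of MEF, and 0 members were called lower against MEF in the second run. That run holds 49273 UMIs, and of the 4 members called lower in the whole library Cyp51 was 3.37-fold lower there (0.910 to 28.2) on 2 UMIs, Fdps 2.37-fold (0.401 to 96.1) on 1 UMI and Sqle 1.15-fold (0.514 to 3.21) on 6, while Hsd17b7 had 0 UMIs. Fatty acid genes were high in both, at 3629 and 4648 CPM. In MEF-3F the runs of 40 and 121 cells had 476 and 658 CPM of enzymes, both below MEF, and 3297 and 3113 of fatty acid genes. Scaling by a trimmed mean of log ratios shifted log2 ratios by -0.33 in MEF-2F and -0.36 in MEF-3F, and the calls in MEF-3F then became 3 higher and 10 lower. This scaling shifts the ratios of all genes alike, and the share of all genes called under it is not given here.

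**Figure D4:**
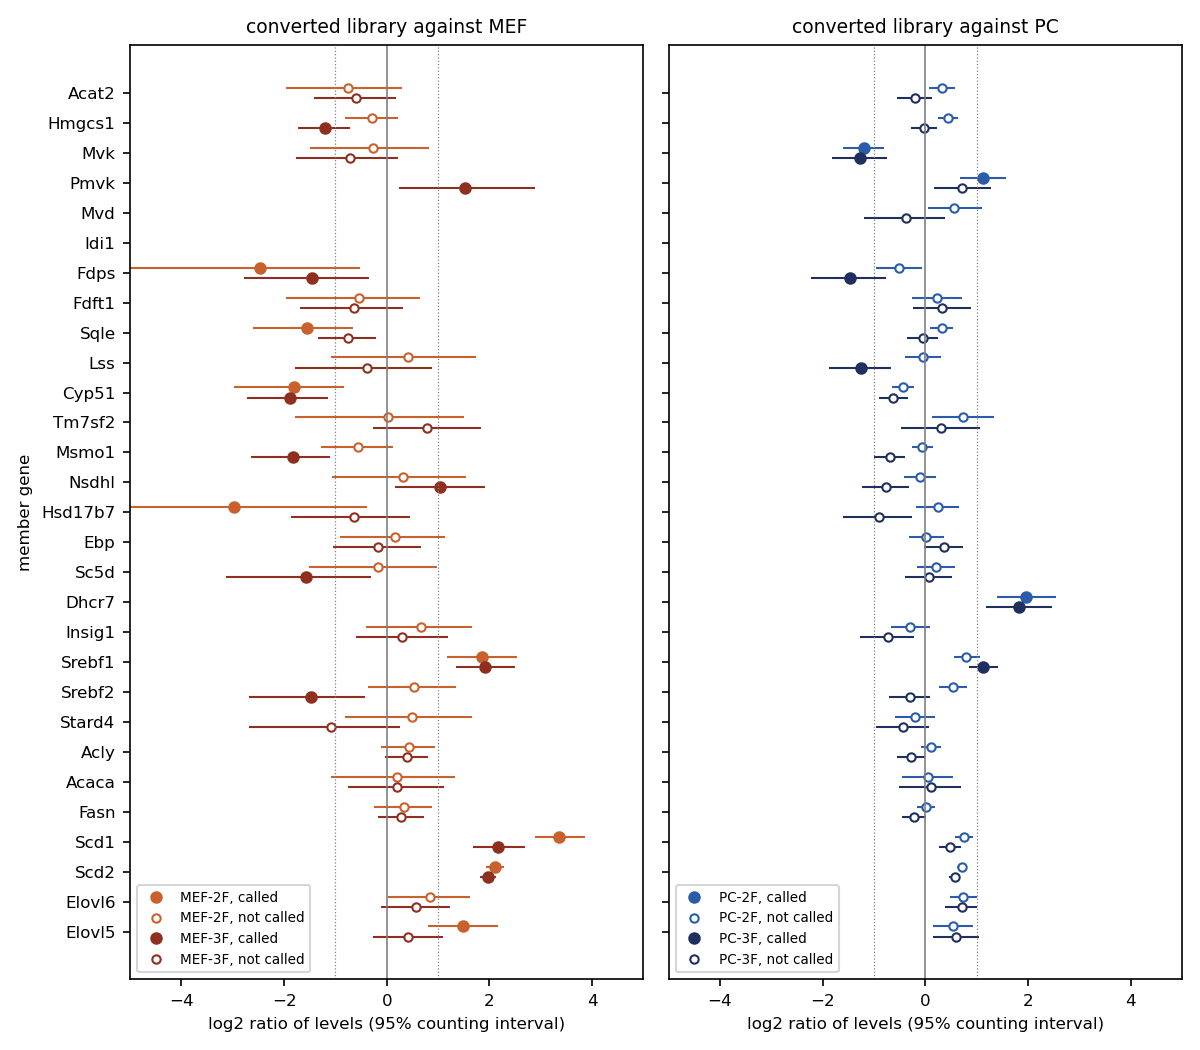
Log2 ratio of the level in each transduced library to that in its donor (x axis) for each measured member (y axis), with 95% counting intervals, drawn no wider than the axis. Filled points are called and dotted lines mark 2-fold, and in MEF-2F and MEF-3F the points of Scd1, Scd2 and Srebf1 lie to the right while Cyp51 and Fdps lie to the left.

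Converted pericytes differed less from their donor in these genes. In PC-2F against PC, 2 of 28 measured members were higher, Dhcr7 and Pmvk, against 17.7% of all 8341 genes measured, and 1 was lower, Mvk, against 12.8%. Dhcr7 was 3.87-fold higher (2.63 to 5.84), Pmvk 2.17-fold higher (1.6 to 2.98) and Mvk 2.30-fold lower (1.75 to 3.05). In PC-3F against PC, 2 of 28 were higher (all genes: 18.8%), Dhcr7 at 3.53-fold (2.28 to 5.56) and Srebf1 at 2.2-fold (1.81 to 2.65). Mvk, Fdps and Lss were lower there, 3 of 28 (all genes: 15.0%), with the smallest ratio for Fdps at 2.75-fold (1.70 to 4.68). The shares called were below those of all genes in both comparisons, which share the PC library.

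No fatty acid gene reached 2-fold in converted pericytes against the whole PC library, 0 of 7 in each. Scd2 had a ratio of 1.63 (1.53 to 1.73) in PC-2F and 1.49 (1.38 to 1.6) in PC-3F, Scd1 of 1.69 (1.5 to 1.91) and 1.39 (1.20 to 1.61), and Elovl6 of 1.67 (1.39 to 2.01) and 1.63 (1.31 to 2.02). Fasn, Acly and Acaca had log2 ratios between -0.27 and 0.11. The enzyme sum had a ratio of 1.08 (1.03 to 1.14) in PC-2F and 0.821 (0.768 to 0.878) in PC-3F, and the fatty acid sum of 1.46 (1.4 to 1.53) and 1.30 (1.23 to 1.37). Without Scd1 and Scd2 the fatty acid sum had a ratio of 1.17 (1.08 to 1.26) and 1.03 (0.934 to 1.13). The PC matrix also joins 2 runs of barcodes, with 2002 CPM of enzymes and 1946 of fatty acid genes in 39 cells and 2378 and 2797 in 251. Against the first run alone, for which the share of all genes called is not given here, 7 members were higher in PC-2F and 5 in PC-3F. Those of both included Scd2 (2.31-fold in PC-2F, 2.11-fold in PC-3F), Scd1 (2.75-fold and 2.25-fold) and Elovl6 (2.25-fold and 2.2-fold), whose levels in that run were 938, 213 and 113 CPM.

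Compared with primary progenitors, converted fibroblasts were lower in most members. In MEF-2F, 21 of 28 measured members were lower, against 24.6% of all 8191 genes measured, and 1 was higher, against 18.5%. In MEF-3F, 23 of 28 were lower (all genes: 19.0%) and 1 higher (20.3%). In each case the higher member was Srebf1, at 3.48-fold (2.13 to 5.72) and 3.63-fold (2.39 to 5.64). The smallest ratios were those of Dhcr7 in MEF-2F, 14.3-fold lower (4.76 to 70.1) on 3 UMIs, and Msmo1 in MEF-3F, 16.4-fold lower (10.3 to 28.0). Hmgcs1 was 7.98-fold (5.83 to 11.2) and 15.1-fold (11.1 to 21.1) lower. Scd2 and Scd1 were not called in either, with log2 ratios of -0.10 and 0.74 in MEF-2F and -0.25 and -0.45 in MEF-3F. In the second run of MEF-2F barcodes, with 49273 UMIs, 10 members were lower and 2 higher. The share of all genes called in that run is not given here.

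Untransduced fibroblasts were already low. In MEF against pOPC, 24 of 28 measured members were lower (all genes: 31.8%) and 0 higher (19.6%), with the smallest ratio for Dhcr7 at 24.4-fold (10.9 to 67.9) and the largest for Ebp, whose log2 ratio was 0.25. All 7 fatty acid genes were lower, with log2 ratios from -3.32 in Elovl6 to -1.46 in Acly. In PC against pOPC, 12 of 28 were lower (all genes: 27.3%) and 2 higher (20.8%), Ebp at 2.95-fold (1.93 to 4.71) and Srebf1 at 3.28-fold (2.26 to 4.92). Dhcr7 had the smallest ratio in PC too, at 7.06-fold lower (4.79 to 10.7).

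In the enzyme sum and the members' median ratio, converted pericytes lay closer to pOPC than converted fibroblasts did. They were not in every measure closer than their donor. The members' median log2 ratio to pOPC was -0.67 (PC), -0.68 (PC-2F) and -0.93 (PC-3F). As a share of the pOPC level, the enzyme sum was 0.489 (PC), 0.529 (PC-2F) and 0.401 (PC-3F). The share for the fatty acid sum was 0.515, 0.754 and 0.670, with the libraries ordered alike. For that sum MEF-2F, at 0.737, lay between PC-2F and PC-3F, and MEF-3F was at 0.603. In PC-2F, 6 of 28 measured members were lower (all genes: 20.8%) and 3 higher (20.1%), and in PC-3F 11 were lower (21.1%) and 2 higher (19.3%). Hmgcs1 had the smallest ratio in both, 3.56-fold lower in PC-2F (3.18 to 3.98) and 4.88-fold lower in PC-3F (4.16 to 5.74), and Srebf1 the largest, 5.73-fold (3.98 to 8.51) and 7.19-fold (4.95 to 10.8) higher. Ebp was called higher in both, and Srebf2 in PC-2F at 2.14-fold (1.62 to 2.86). Trimmed-mean scaling shifted log2 ratios to pOPC by 0.25 in PC-2F, 0.21 in PC-3F, 0.33 in PC and 0.38 in MEF, and left 2, 6 and 6 members lower in PC-2F, PC-3F and PC. The share of all genes called under that scaling is not given here. All 6 comparisons with pOPC share that library.

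Libraries with Nkx6.2 as well as Olig2 and Sox10 were also set beside those without it. In MEF-3F against MEF-2F, 0 of 22 measured members were higher (all genes: 9.36%) and 4 lower (18.2%, against 7.01% of all genes): Srebf2, the smallest ratio, at 3.98-fold (1.70 to 10.1), Msmo1 at 2.43-fold (1.24 to 4.81), Scd1 at 2.28-fold (1.78 to 2.93) and Elovl5 at 2.11-fold (1.28 to 3.47). With the UMIs that log2 ratios add, all 7 fatty acid genes had a log2 ratio below 0. Without them Acaca was level (39.3 CPM against 39.1, MEF-3F first). Acly (186 against 191) and Fasn (155 against 161) had overlapping intervals too. The largest log2 ratio, 1.82 for Hsd17b7, rested on 1 UMI in MEF-2F and was not called. With the first run of barcodes alone in both libraries, 0 members were called lower on fewer counts, with ratios of 5.49-fold lower (0.798 to 236) for Srebf2 on 1 UMI in MEF-3F, 3.24-fold (0.735 to 29.6) for Msmo1, 1.44-fold for Scd1 (376 against 541 CPM) and 1.75-fold (0.776 to 4.44) for Elovl5. With the second run alone in both, Hmgcs1 at 3.94-fold (2.13 to 7.05) and Insig1 at 3.73-fold (1.38 to 9.24) were called lower. Elovl5 was not called there, and Srebf2 was below the minimum to be measured. In PC-3F against PC-2F, 0 of 28 were higher (5.08%) and 2 lower (5.98%), Lss, the smallest ratio, at 2.30-fold (1.53 to 3.58) and Hsd17b7 at 2.2-fold (1.41 to 3.56). Ebp had the largest log2 ratio, 0.34.

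Genes of uptake, export and the remaining steps, from lists of 18 and 29 genes, give the surroundings of the members. In MEF-2F against MEF, 6 of 14 measured uptake and export genes were higher and 1 lower, and of the other synthesis genes 7 of 22 were higher and 3 lower (all genes: 19.0% higher and 14.7% lower). In MEF-3F against MEF the counts were 3 of 12 higher and 2 lower, and 5 of 22 higher and 3 lower (all genes: 23.6% and 12.7%). Abca1, the cholesterol exporter and a target of the sterol-sensing LXR receptors, was at 3.12 CPM in pOPC, 30.4 in MEF, 208 in MEF-2F, 189.9 in MEF-3F, and 34.0 in PC, 20.8 in PC-2F and 17.3 in PC-3F. It was 6.86-fold (4.12 to 11.7) higher in MEF-2F and 6.25-fold (3.94 to 10.3) higher in MEF-3F than in MEF. The runs of barcodes differed in it, with 476 CPM in the first and 119.6 in the second of MEF-3F, and 177 and 325 in those of MEF-2F.

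In MEF-2F the 3 highest ratios among called genes of both lists were Abca1, Nr1h2 (an LXR receptor gene; log2 2.38) and Acsl3 (an acyl-CoA synthetase; log2 2.37), and among the lowest were Hacd1 (-2.76) and Hsd17b12 (-1.55). Hacd1 and Hsd17b12 are enzymes of chain elongation. In MEF-3F the 3 highest were Acsl3 (3.08), Abca1 and Tecr (a reductase of elongation; 1.45), and among the lowest were Elovl1 (-2.44) and Hacd1 (-2.04). The converted pericytes differed in other genes of the lists. Vldlr, a receptor of lipoproteins, had 0 UMIs in PC and was in PC-3F at least 46.8-fold higher and in PC-2F at least 26.9-fold higher, taking PC at 3 UMIs. Fabp5, a fatty acid binding protein, was 14.6-fold (10.5 to 20.9) and 10.4-fold (7.35 to 15.2) higher, and Elovl7, an elongase, 11-fold (5.56 to 24.9) and 9.50-fold (4.56 to 22.2). Lrp8, a reelin and lipoprotein receptor, was 4.36-fold lower (log2 -2.07) in PC-2F and 3.30-fold lower (-1.64) in PC-3F, the lowest ratio of the lists in each, and Tmem97 (-1.19) was the other gene called lower in PC-3F.

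Enzyme and fatty acid UMIs were also counted per cell. After each cell was thinned to 1000 UMIs, the enzymes had a median of 4.0 UMIs per cell (quartiles 3.00 and 6.00; 116 cells) in pOPC, 2.00 (1.0 and 3.00; 267) in PC, 2.00 (1.0 and 3.00; 178) in PC-2F, and in PC-3F 1.0 (1.0 and 3.00; 146). In the libraries of fibroblast origin the median was 0, with a mean of 0.977 in 129 cells of MEF, 0.587 in 75 of MEF-2F and 0.730 in 122 of MEF-3F. Without thinning the last 2 stood in the other order, at 0.739 per 1000 UMIs in MEF-2F and 0.673 in MEF-3F. The 7 fatty acid genes had a mean of 0.891 UMIs per cell in MEF, against 2.99 in MEF-3F and 4.07 in MEF-2F, and the lower quartile of both converted libraries, 2.00, lay above the upper quartile of MEF, 1.0. Thinning left out 39 shallow cells in MEF-3F, 23 in PC, 18 in pOPC and 1 to 7 elsewhere. Across cells, enzyme and fatty acid UMIs had a Spearman correlation of 0.37 in PC and between -0.04 and 0.21 in the other 6 libraries. These cells share a library, a fixed depth and low counts, and the values are given as a description.

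**Figure D5:**
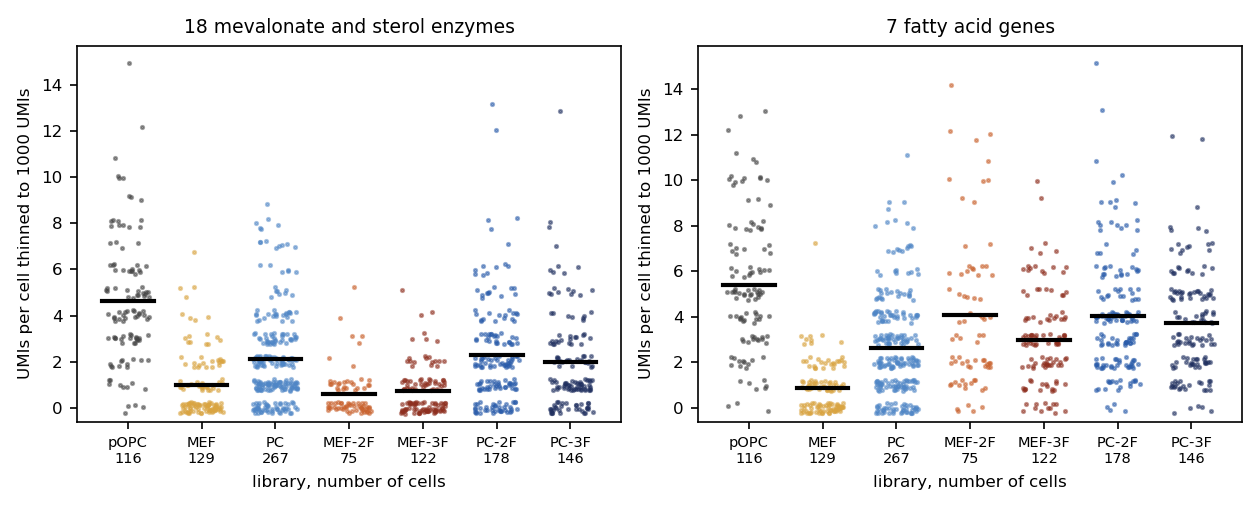
UMIs per cell (y axis, jittered) of the 18 enzymes (left) and the 7 fatty acid genes (right) after thinning each cell to 1000 UMIs, by library with its number of cells (x axis). Each point is a cell and each black line the mean, and the mean of the fatty acid genes is 0.891 in MEF and 4.07 in MEF-2F while that of the enzymes is 0.977 and 0.587.

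Within converted libraries, Scd2 was higher in cells with more glial marker UMIs, with counting intervals that parted only in MEF-2F and PC-3F. Cells were parted by whether they had more UMIs of 25 glial markers or of 9 fibroblast markers, a division chosen after the data were seen. In MEF-2F, Scd2 was at 4126 CPM in 31 cells with more glial UMIs and at 1537 in 37 with more fibroblast UMIs, and the fatty acid sum at 5741 and 2505. Scd2 in both classes was above the 598 CPM of MEF. In MEF-3F, Scd2 was at 2461 CPM (2263 to 2671) in 64 cells and 2042 (1832 to 2269.6) in 48. The enzyme sum differed less, at 829.6 and 626 CPM in MEF-2F and 669 and 551 in MEF-3F, all below MEF. In PC-2F and PC-3F the enzyme sum was lower in the cells with more glial UMIs, at 2337 against 2871 CPM and at 1725 against 2001. Scd2 was at 2210.5 (2104 to 2321) against 2013 (1879 to 2155) in PC-2F and at 2499 against 1653 in PC-3F. The fatty acid sum did not follow Scd2 in PC-2F, at 3756 CPM against 4143, and was 4108 against 3120.2 in PC-3F. With the marker UMIs equal or 1 apart lay 36 cells of PC-2F, 18 of MEF-2F, 21 of PC-3F and 24 of MEF-3F, and the part of the glial share in the library levels was not tested.

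Some members share annotated exon bases with another gene, and whether the counting used strand is not given in the sources used here. Fdft1, Cyp51 and Srebf1 end inside an exon of a gene on the opposite strand (Ctsb over 774 bases, Akap9 over 166 and Rai1 over 109). Rai1 was at 13.0 to 67.1 CPM and Akap9 at 36.7 to 72.0, whereas Ctsb ran from 158 CPM in pOPC to 1423 in PC, so the level of Fdft1 is the least certain of the 3. Tm7sf2 shares 532 bases with Vps51 and Fdps 1124 with Gm43738 on the same strand. Neither overlap takes in the 3′ end, and knowing the strand would not part these genes, so their levels are uncertain too.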

How the data were processed

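Cells of 7 libraries were profiled, 1 per population. The authors used featureCounts 1.6.1, STAR 2.5.3a, mm10, bcl2fastq 2.19.1.403 and UMI-tools 0.5.3, per the submitters' processing notes, which give no order or settings. The other values the authors deposited are whole-number codes and not UMI counts. Each was read as the place of a count in the text-sorted list of counts that occur in a run of barcodes, an inference that no label states. Under it the commonest code above 1 read as 2 in all 1140 barcodes.

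A barcode was kept from 500 UMIs upward if mitochondrial genes held less than 20% of them, with no doublet caller run, and UMIs were summed per library. Ratios have exact conditional binomial intervals at 95%, and log2 ratios add 0.5 UMIs. A gene was measured with 10 UMIs and 20 CPM in 1 of both libraries, and called at 2-fold with an interval excluding 1. A library at 0 was set to 3 UMIs. The members with the largest and smallest ratio per comparison and the 3 highest and 3 lowest called genes of the other lists are named. Some genes of those lists are not reported here. Members and lists were chosen with earlier results of these data known. Python 3.11.15, numpy 2.4.6, scipy 1.17.1, pandas 2.3.3 and matplotlib 3.10.9 were used, and the decoding and calls were tested on simulated data. The alternatives concerned cell and level filters, scaling, decoding, weighting of cells, runs of barcodes, fold, pseudocount and thinning.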

Additional observations from a re-analysis of the deposited data

Results flagged for a closer look

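The summed mevalonate and sterol enzymes lay in opposite directions in the 2-factor libraries. The log2 ratio of MEF-2F to MEF was -0.59 and that of PC-2F to PC was 0.11, with 1 library in each group, and the difference between both was not tested. The sum in the smaller run of MEF-2F barcodes was 1299 CPM (1000.3 to 1659) in 17 cells, an interval that contains the 1069 CPM of MEF. In cells with no cell cycle UMI the sum in PC-2F, 2059.7 CPM, was below the 2235 CPM of PC, and with trimmed-mean scaling it was 2993 against 2924.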

How the results depend on the processing

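No paired analysis was possible because each population is 1 library, and for the same reason no replicate could be left out. Over 15 alternative settings, 2871 of 3074 members' ratios stayed within their counting interval, as did 104 of 106 medians and 68 of 110 summed levels, and 231 of 260 counts stayed within 1.5 times. The cells with no cell cycle UMI were a choice made after seeing the data. Medians take in members that were not measured, Idi1 at 0 against 0 UMIs included. Where values changed, the cause was not tested. Counts called under an alternative setting are given without the share of all genes called under it. A changed count is therefore not read as particular to the members.

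Of the ratios 3 changed sign, all with 1 run of barcodes: Nsdhl in MEF-3F against MEF (log2 -0.78, first run), and Tm7sf2 (0.40) and Insig1 (0.46) in MEF-2F against pOPC (second run). The second run of MEF-2F gave 0 lower members (Cyp51 was 3.37-fold lower on 2 UMIs) and a median log2 ratio of 0.87 against MEF, and 2 higher and 10 lower against pOPC. With the first run, 3 members were higher in MEF-3F against MEF, 0 lower in MEF-3F against MEF-2F (Srebf2 was 5.49-fold lower on 1 UMI), and 7 and 5 higher in PC-2F and PC-3F against PC. Trimmed-mean scaling gave 3 higher and 10 lower in MEF-3F against MEF, and 2, 6 and 6 lower in PC-2F, PC-3F and PC against pOPC.

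A minimum of 100 CPM gave 2 lower in MEF-2F against MEF, 3 higher and 3 lower in MEF-3F against MEF, 1 higher in PC-3F against PC, 2 lower in MEF-3F against MEF-2F and 1 lower in PC-3F against PC-2F. No minimum gave 2 lower in PC-2F against PC. A threshold of 1.5-fold gave 7 higher in PC-2F and 5 higher and 8 lower in PC-3F against PC, 2 higher in MEF-2F, 14 lower in PC-2F and 20 lower in PC-3F against pOPC, and 7 lower in PC-3F against PC-2F. Cells with no cell cycle UMI gave 5 higher in PC-2F against PC and 0 lower in PC-3F against PC-2F. The mean over cells gave 2 higher in MEF-3F against MEF-2F and a median log2 ratio of -0.11 in PC-3F against PC-2F.

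The enzyme sum without mitochondrial and ribosomal genes was 5258 CPM in pOPC, 2597 in PC, 2783 in PC-2F, 2118 in PC-3F, 1206 in MEF and 699 in MEF-3F. With trimmed-mean scaling it was 1389 in MEF, 2924 in PC, 2993 in PC-2F and 2213 in PC-3F. It was 4956 in pOPC with certain codes only, and 971 in MEF and 2238 in PC as a mean over cells. In single runs it was 2002 in PC (first), 552 and 1299 in MEF-2F and 476 in MEF-3F (first). In cells with no cell cycle UMI it was 1631 in pOPC, 2235 in PC, 2059.7 in PC-2F and 874 in MEF. Without thinning, the median enzyme level per cell in PC-2F was 2.08 per 1000 UMIs.

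The fatty acid sum without mitochondrial and ribosomal genes was 5753 CPM in pOPC, 1207 in MEF, 4234 in MEF-2F, 3539 in MEF-3F, and 2997 in PC, 4343 in PC-2F and 3871 in PC-3F. With trimmed-mean scaling it was 1390.4 in MEF, 3375 in PC, 4671 in PC-2F and 4045 in PC-3F. It was 4074 in PC-2F with certain codes only, and 2438 in PC and 3667 in PC-3F as a mean over cells. In single runs it was 1946 and 2797 in PC and 4648 in MEF-2F (second). In cells with no cell cycle UMI it was 2833 in pOPC, 2546 in PC, 4605 in PC-2F and 3721 in PC-3F. Depth limits MEF-2F most, where Hsd17b7 rests on 1 UMI, Fdps and Mvd on 2 and Dhcr7 on 3.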
